A study of Mus musculus with 12 samples.

Results

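The dermal papilla (DP) of control mice was compared between postnatal day 14 (P14) and postnatal day 16 (P16), the late part of the first growth phase (anagen) of the hair follicle. All 6 libraries labelled as wild type control on these days were taken, 3 from mice at P14 and 3 from other mice at P16, out of 12 libraries in all. The other 6 came from dMF1/2 mice, the double mutants that lack Fgfr1 and Fgfr2 in the DP, and entered the shared fit. DP cells carried a YFP reporter that Cre switches on and were sorted by FACS from dissociated skin on both days, and the labels place every library in anagen. Cre was driven from the Corin locus in both genotypes, so that the cells were chosen by past activity of Corin, itself a DP gene. By the study's methods, the control genotype with this driver carries 1 floxed copy each of Fgfr1 and Fgfr2, so that sorted control cells of that genotype would keep 1 intact copy of each gene. The study describes each library as the transcriptome of a single mouse, and the labels do not state the sex of the mice.

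The DP is a cluster of mesenchymal cells at the base of the follicle, enclosed by the epithelial matrix whose division builds the hair shaft. It sends short-range signals, among them Wnt modulators, FGFs, BMP ligands and BMP inhibitors, that keep the matrix dividing during anagen. When anagen ends the follicle enters catagen, in which the lower epithelium dies back while the papilla persists and is carried upward. The comparison asks what changes in the papilla itself over the last days before this switch.

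Reads per control library in the genes shared by both days ran from 19301498 to 25823541 at P14, with a median of 23036584, and from 23086032 to 29859320 at P16, with a median of 24086405. All 10 fixed DP markers were detected in each control library, at a summed level of 2515 to 5172 CPM (reads scaled to a common library total) at P14 and 1006 to 1853 CPM at P16. Markers of hair follicle keratinocytes, melanocytes, immune cells and skeletal muscle summed to at most 23.2 CPM on either day, whereas the 5 dermal fibroblast markers summed to 1384 to 1780 CPM at P14 and 1154 to 1431 CPM at P16. The 5 markers of the contractile dermal sheath summed to 709 to 1494 CPM at P14 and 487 to 1148 CPM at P16. P14 control 1 stood apart in matrix genes, since Col1a1 took 7.06% of its reads against 16.7% and 16.4% in the other P14 control libraries and 14% to 17.7% at P16. The dMF1/2 library of the same number and day was low as well, at 9.15% against 17.1% and 16.8% in the others. Libraries of 1 day with the same replicate number deviated together in both genotypes, and with the number as a block within the day 1917 genes changed in control mice in place of 1951, of which 1800 were shared. The adjusted p under this block, an alternative chosen after seeing the data, is given for the genes named in the text whose call it ended or made, with the counts of groups that it moved by over 1.5 times. P16 control 1 was the lowest of the 3 P16 libraries for 52.2% of the genes that fell (32.5% of all genes tested) and the highest for 54.3% of the genes that rose (33.5% of all). At P14, replicate 3 lay nearest to P16 for 53.1% of the falling and 64.4% of the rising genes, against 32.6% and 31.6% of all genes. In RNA of a bulk sort, a lower share of papilla cells among the sorted cells and less RNA of a gene per papilla cell cannot be told apart.

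Among genes that passed the test more fell than rose, and most changes were small. Of 13415 genes with a mean of at least 10 scaled reads, 1951 differed between the days at a limma adjusted p under 0.05, a share of 14.5%. Of these 840 rose (6.26% of genes tested) and 1111 fell (8.28%). Scaled reads are whole reads divided by a factor that makes the libraries comparable. The change was under 1 on the log2 scale for 1527 of the called genes, over 1 for 141 rises and under -1 for 283 falls. Beyond 2 on the log2 scale there were 18 rises and 54 falls. The median change was 0.53 among rises and -0.64 among falls, and 0.014 over all genes tested, of which 6945 had a change above 0 and 6470 below 0. Among called genes, 1928 had control groups that did not overlap, as did 36% of all genes tested. When each control library was left out in turn, 569 of the 1951 genes passed every time, 168 of them rising and 401 falling. The number of calls became 782, 1044 and 1943 when P14 controls 1, 2 and 3 were removed in turn and 693, 1692 and 971 when P16 controls 1, 2 and 3 were. Scaled to the total of reads instead, 99 genes rose and 300 fell, a share of rises of 24.8% against 43.1%. With the dMF1/2 libraries taken out of the fit, 805 genes passed, 283 up and 522 down. Of 207 genes that the naming rule chose and that passed, 103 did not pass in that fit of 6 libraries, 120 did not under total-count scaling, and 81 passed whichever library was left out. Igf2, Cxcl14, Plin1, Kit, Cnn2, Hbb-bs, Ndufa13, Atp5k, mt-Atp8, mt-Nd2, mt-Nd4l and mt-Nd6 passed in all of those fits, as did the genes that the text describes so. The other genes given as rising or falling lost the call without at least 1 library. Of the 81, Ctnnb1, Fgf2, Adam10 (0.0557), Ano1 (0.0514) and Elovl6 (0.0622) did not pass with the 6 libraries (adjusted p in parentheses). Under total-count scaling those that did not pass included Ctnnb1, Fgf2, Adam10, Apc2, Cnn2, Fads2, Hoxc9, Il17rd, Lef1, Pappa2 and Rfng. In what follows, a value in parentheses after a gene is its log2 fold change, SE is the standard error of that change, and adjusted p is from limma. Exact permutation tests of 3 mice against 3 cannot go below a two-sided p of 0.1, the value of every gene whose groups do not overlap.

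**Figure D1:**
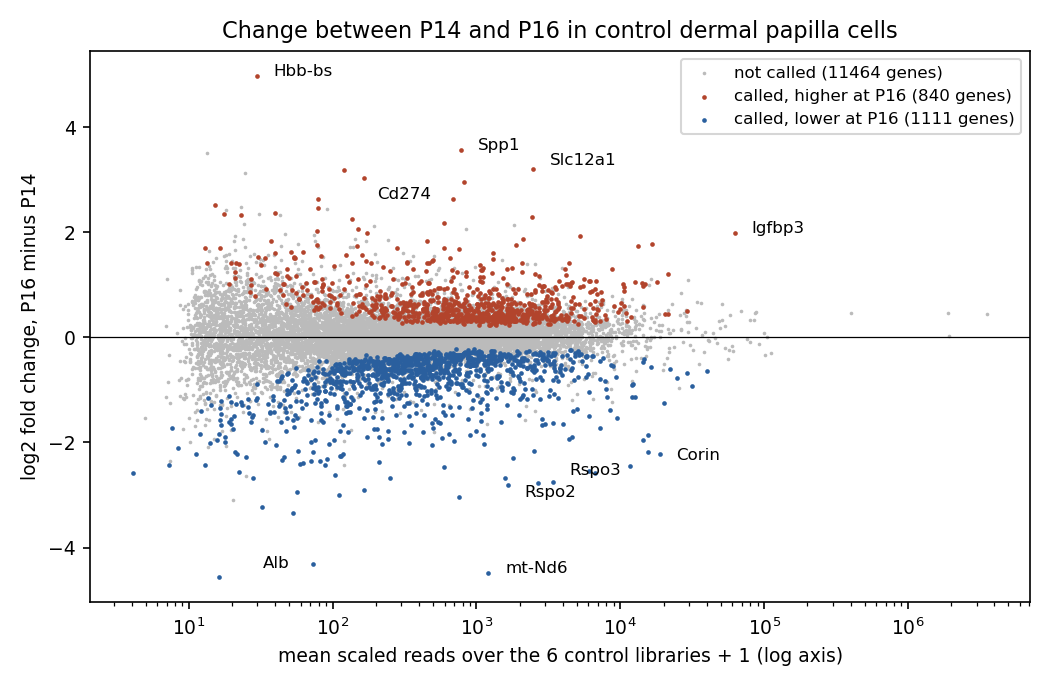
Log2 fold change between P14 and P16 in control mice (y axis) against the mean of the 6 control libraries in scaled reads plus 1 (log x axis), 1 point per gene tested, with the 840 called rises in red, the 1111 called falls in blue and the other 11464 genes in grey. Rspo2, Rspo3 and Corin lie among the falls at high read numbers, and Igfbp3 lies among the rises.

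R-spondins are secreted proteins that strengthen Wnt signals by removing the ligases that clear Wnt receptors from the cell surface. The expression of all 4 R-spondin genes fell between P14 and P16. Rspo2 (ENSMUSG00000051920, chromosome 15, 43020811 to 43170818 of mm10) had 4063, 2485 and 2071 scaled reads at P14 and 210.0, 535 and 541 at P16. The P16 libraries lay far below the P14 libraries, with replicate 1 of P16 the lowest. On the log2 scale it fell by 2.81 (SE 0.38, limma's adjusted p = 0.00177), a 6.99-fold lower level. Rspo3 (ENSMUSG00000019880, chromosome 10, 29453109 to 29535867), a marker of the papilla as well, had 8291, 5625 and 3809 scaled reads at P14 and 467, 1260.2 and 1000.4 at P16, again with no overlap. The change was -2.74 (SE 0.41, adjusted p = 0.00293) on the log2 scale. Rspo2 and Rspo3 passed the test whichever control library was left out, with adjusted p between 0.00306 and 0.00834 for Rspo2 and between 0.00364 and 0.0144 for Rspo3. Rspo4 (ENSMUSG00000032852, chromosome 2, 151842927 to 151874668) had 29728, 22393 and 15468 scaled reads at P14 and 2599, 8911 and 7726 at P16. It changed by -1.95 (SE 0.42, adjusted p = 0.0137) on the log2 scale. The adjusted p of Rspo4 was 0.0541 after P14 control 1 was left out. Rspo1 (ENSMUSG00000028871, chromosome 4, 124986430 to 125009099) moved least, with 3741, 2944 and 2926 scaled reads at P14 and 1200.4, 1955 and 1797 at P16, and its groups did not overlap. The fold change was -0.98 (SE 0.22, adjusted p = 0.0151) on the log2 scale. For Rspo1 the adjusted p was 0.0587 after P14 control 1 was left out and 0.0584 after P16 control 1. With the 6 control libraries alone 3 of the 4 passed, without Rspo4 (adjusted p = 0.0558), and under total-count scaling 3 passed, without Rspo1. The study singled out the R-spondins on these libraries, so that the count of 4 of 4 is not independent evidence of their direction. None of the 4 receptors and ligases of the R-spondin system that were tested passed, and their median change was 0.18.

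RefSeq promoters (GRCm38.p6) were at hand for Rspo1 and Rspo4, and the 250 bases before the start site are shown because the genes fell together. No stretch is in capitals, since the TCF/LEF motif that was searched, CTTTGAT on either strand, was in neither window. It was in 3.72% of the windows of all genes with a promoter. Both are on the plus strand, at chr4:124986180-124986429 for Rspo1 and chr2:151842677-151842926 for Rspo4.
Rspo1: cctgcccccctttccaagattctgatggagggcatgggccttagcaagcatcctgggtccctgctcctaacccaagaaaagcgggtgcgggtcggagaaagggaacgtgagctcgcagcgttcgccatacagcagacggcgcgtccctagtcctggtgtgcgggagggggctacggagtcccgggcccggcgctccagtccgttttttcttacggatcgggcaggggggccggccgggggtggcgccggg
Rspo4: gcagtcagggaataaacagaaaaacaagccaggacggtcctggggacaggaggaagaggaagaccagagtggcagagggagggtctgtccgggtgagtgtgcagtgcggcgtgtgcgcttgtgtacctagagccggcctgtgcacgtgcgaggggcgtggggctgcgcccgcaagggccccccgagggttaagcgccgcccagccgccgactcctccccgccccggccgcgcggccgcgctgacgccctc

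Of 16 secreted Wnt inhibitors tested, 3 fell and none rose, a share of 18.8% called against 14.5% of all genes, with a median change of -0.73. Sfrp1, a secreted Frizzled-related protein that binds Wnt ligands, had 28897, 27371 and 18613 scaled reads at P14 and 2456, 8166 and 7875 at P16. P16 control 1 was the lowest library, and the groups were apart. It fell with a log2 fold change of -2.18 (SE 0.42, adjusted p = 0.00861) and was among the 5 largest losses in CPM, from 1136 to 256 CPM. Sfrp2, of the same family, had 5886, 4165 and 2343 scaled reads at P14 and 719, 1329.5 and 663 at P16, a log2 fold change of -2.17 (SE 0.34, adjusted p = 0.00355). Both Sfrp1 and Sfrp2 passed whichever control library was left out. Sostdc1, an inhibitor of BMP and Wnt signals, fell from 8503 ± 1432 to 3540.3 ± 2083 scaled reads (SD, n = 3 each), but its adjusted p of 0.0412 became 0.124 after P14 control 1 was left out, 0.0939 after P14 control 2, 0.0531 after P14 control 3, 0.0644 after P16 control 1 and 0.0531 after P16 control 3. Dkk2, which blocks the Wnt co-receptors, had 10714, 8319.5 and 14053 scaled reads at P14 and 13033, 14666 and 14500.4 at P16, so that the groups overlapped. Its log2 fold change of 0.38 had an adjusted p of 0.237. Notum, an enzyme that strips the lipid from Wnt ligands, had 7431, 3053 and 7368 scaled reads at P14 and 8919, 8004 and 10388 at P16. Every P16 library lay above every P14 library, among which replicate 2 was far below the others. Its log2 fold change of 0.72 (SE 0.43) had an adjusted p of 0.281, and neither Dkk2 nor Notum passed under any alternative run.

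Inside the cell, the Wnt pathway showed 1 rise and 6 falls among 35 components tested, with a median of -0.17, so that 20% passed against 14.5% of all genes. Ctnnb1, which encodes beta-catenin, the transcriptional effector of canonical Wnt signals, had 11929, 10402 and 12626 scaled reads at P14 and 15364, 17164 and 19381 at P16. All P16 libraries were above all P14 libraries. It rose by 0.57 (SE 0.12, adjusted p = 0.011), with adjusted p between 0.0126 and 0.0432 when 1 library was left out, but at 0.0556 with the 6 control libraries alone and 0.199 under total-count scaling. Lef1, a DNA-binding partner of beta-catenin and a papilla marker, had 3991, 3123 and 2248 scaled reads at P14 and 1359.6, 1285 and 1424 at P16, a change of -1.16 (SE 0.23, adjusted p = 0.0102). Tcf7l1 of the same TCF/LEF family changed by -0.72 (adjusted p = 0.00221), the corepressor Tle2 by -0.98 and Apc2, a relative of the destruction complex protein Apc, by -0.84. These 5 genes passed whichever library was left out. Among 12 Wnt ligands, Wnt2 (log2 fold change -1.54, adjusted p = 0.0316) and Wnt5b (-0.70, adjusted p = 0.0287) fell and none rose, a share of 16.7%. Wnt2 lost its call at an adjusted p of 0.116 after P14 control 1 was left out, 0.0907 after P14 control 2 and 0.109 after P16 control 1, and Wnt5b at 0.0669 after P14 control 1 was left out, 0.0822 after P14 control 2, 0.0646 after P16 control 1 and 0.0941 after P16 control 3. Of 17 Frizzled receptors and co-receptors, Fzd5 rose and Fzd10 and Fzd1 fell, a share of 17.6%, each losing the call without at least 1 library, and Fzd1 had an adjusted p of 0.0517 with the block within the day.

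**Figure D2:**
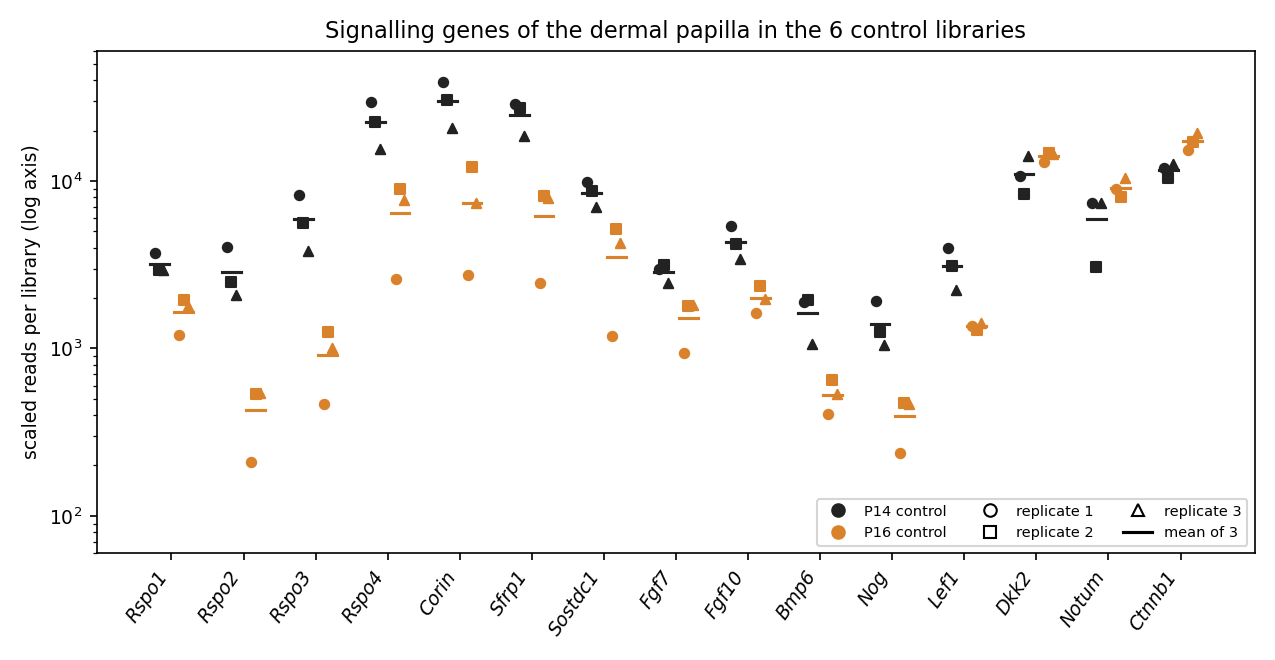
Scaled reads (log y axis) of 15 signalling genes in each of the 6 control libraries, with P14 in black, P16 in orange, a symbol for each replicate and a bar for the mean of 3. The groups do not overlap for the 4 R-spondins, Corin, Sfrp1, Fgf7, Fgf10, Bmp6, Nog and Lef1, and they overlap for Dkk2.

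Many genes that mark the papilla fell. Of 30 DP identity genes tested, 13 fell and none rose, a share of 43.3% called against 14.5% of all genes, with a median change of -0.80. Some of these genes appear in the signalling groups as well, Rspo3, Fgf7, Fgf10, Bmp6, Nog, Lef1 and Sostdc1 among them. Without P14 controls 1, 2 and 3 in turn the falls numbered 6, 8 and 12, and without P16 controls 1, 2 and 3 they numbered 7, 13 and 9, and 6 genes fell in all of these fits. The falls numbered 7 with the 6 control libraries alone and 6 under total-count scaling. Corin (ENSMUSG00000005220, chromosome 5, 72300025 to 72504473), a transmembrane protease of the papilla and the locus of the Cre driver, had 39219, 30624 and 20793 scaled reads at P14 and 2736, 12145 and 7425 at P16. It lost more CPM than any other called gene, from 1397 to 307 CPM. Corin changed by -2.22 (SE 0.47, adjusted p = 0.0133) on the log2 scale, with an adjusted p of 0.0519 after P14 control 1 was left out and 0.0527 with the 6 control libraries alone. The Corin locus also carries Cre in these mice, and what that allele adds to the count was not tested. Alpl, the alkaline phosphatase by which the papilla is stained, had 1474, 1155 and 697 scaled reads at P14 and 219, 354 and 253 at P16, a log2 fold change of -1.97 (SE 0.29, adjusted p = 0.00271). Cntn1, a neural cell adhesion protein, had 10344, 13149 and 10076 scaled reads at P14 and 775, 2855 and 2846 at P16, with P16 control 1 far below the others. It changed by -2.59 (SE 0.54, adjusted p = 0.0118), and both Alpl and Cntn1 passed whichever library was left out. Itga9, Sox18 and Hoxc8 completed the genes that fell. The defining markers Sox2 (log2 fold change -0.85, adjusted p = 0.0622), Vcan (-0.50, 0.061) and Crabp1 (-0.67, 0.101) did not pass, although their groups did not overlap and Sox2 (0.0432) and Vcan (0.049) passed with the block within the day, and Prom1 had a change of 0.50 with overlapping groups.

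The papilla makes FGFs that act on the matrix. Of 13 FGF family genes tested, the ligands Fgf7 and Fgf10 and the intracellular family member Fgf11 (-0.59) fell. In the same list 1 rose, a share of 30.8% called against 14.5% of all genes. Fgf11 had an adjusted p of 0.0845 after P14 control 1 was left out, 0.0851 after P16 control 1 and 0.0581 after P16 control 3. Fgf10 had 5359, 4231 and 3444 scaled reads at P14 and 1633, 2362 and 1987 at P16, a log2 fold change of -1.12 (SE 0.25, adjusted p = 0.0152), with an adjusted p of 0.0602 after P14 control 1 was left out and 0.0646 after P16 control 1. Fgf7 fell from 2862 ± 359.7 to 1512 ± 496 scaled reads (SD, n = 3 each), a change of -0.97 (SE 0.28, adjusted p = 0.0405), and its adjusted p was 0.114 after P14 control 1 was left out, 0.104 after P14 control 2, 0.139 after P16 control 1 and 0.0543 after P16 control 3. Fgf2 rose by 0.66 (adjusted p = 0.00988) and passed whichever library was left out, but not with the 6 control libraries alone (0.0532) or under total-count scaling (0.11). None of the 5 FGF receptors tested passed. Fgfr1 had 9003 ± 1127 scaled reads at P14 and 10175 ± 2008 at P16 (SD, n = 3 each), a log2 fold change of 0.17 (adjusted p = 0.485), and Fgfr2 had 4847 ± 259.8 scaled reads at P14 and 5006 ± 288 at P16 (SD, n = 3 each), a change of 0.046 (adjusted p = 0.85). Among 19 feedback inhibitors and targets of FGF and ERK signalling, 4 rose (6.26% of all genes rose) and 1 fell, with a median of 0.35 and 26.3% called. The rises were Ets2 (1.3), a transcription factor that ERK phosphorylates, the phosphatase Dusp5 (0.76), the receptor inhibitor Il17rd (0.52) and Spred1 (0.35). Spry1, an inhibitor of receptor tyrosine kinase signals, fell by 0.84 on the log2 scale. Only Il17rd of these 5 passed whichever library was left out. With the block within the day 3 rose and 2 fell, and Dusp5 had an adjusted p of 0.0558.

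BMP signals restrain or promote hair differentiation according to where they act, and the papilla makes both ligands and inhibitors. Of 22 BMP ligands and antagonists tested, 4 fell and none rose, a share of 18.2% called against 14.5% of all genes, with a median of -0.13. The ligand Bmp6 had 1889, 1944 and 1061 scaled reads at P14 and 406, 646 and 537 at P16, a log2 fold change of -1.59 (SE 0.25, adjusted p = 0.00342). Nog, which encodes the BMP inhibitor Noggin, had 1915, 1249 and 1056 scaled reads at P14 and 237, 475 and 468 at P16, a change of -1.86 (SE 0.34, adjusted p = 0.00684). Both had groups well apart and passed whichever library was left out. Fst (-1.05), which encodes the activin inhibitor follistatin, and Smoc1 (-0.75) fell as well but lost the call without at least 1 library, Smoc1 also with the block within the day (adjusted p = 0.0627). Of 10 genes that BMP signals are known to induce, Msx2 (-0.87), Bambi (-0.83) and Atoh8 (-0.80) fell and none rose, a share of 30%. None of these 3 passed in every fit with 1 library left out, and Atoh8 passed in none, with adjusted p between 0.0568 and 0.154. Falls in this list numbered 0, 0 and 3 without P14 controls 1, 2 and 3 in turn, and 0, 1 and 1 without P16 controls 1, 2 and 3.

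Other factors that the papilla sends to the matrix and to pigment cells were divided. Edn3, which encodes endothelin 3, a signal to melanocytes, had 1447, 2192 and 989 scaled reads at P14 and 264, 508 and 567 at P16, a log2 fold change of -1.79 (SE 0.36, adjusted p = 0.01). Nrg2, a ligand of ErbB receptors, had 6663, 4692 and 2572 scaled reads at P14 and 275, 1007 and 923 at P16, and it was among the 10 largest falls, at -2.76 (SE 0.49, adjusted p = 0.00615). Both passed whichever library was left out. Hgf (0.65, adjusted p = 0.0291) and Tgfa (0.85, adjusted p = 0.0316) rose at low levels. Hgf passed in none of the fits with 1 library left out, with adjusted p between 0.0511 and 0.0889, and Tgfa was at 0.0982 after P14 control 1 was left out, 0.0905 after P14 control 2, 0.0751 after P16 control 1 and 0.109 after P16 control 3. In the IGF system, the growth factor Igf2 had 8334, 3532 and 3829 scaled reads at P14 and 1238, 2175 and 1400.0 at P16 and changed by -1.63 (SE 0.33, adjusted p = 0.0109). Igfbp3, which binds IGFs and holds them from their receptor, made the largest gain in CPM of all called genes, from 1249 to 3909 CPM. It had 24997, 9677 and 50697 scaled reads at P14 and 143003, 66549.6 and 79797 at P16, with P14 control 3 the closest to the P16 libraries. The log2 change of 1.98 (SE 0.52, adjusted p = 0.0294) had an adjusted p of 0.0726 after P14 control 1 was left out, 0.0778 after P14 control 2, 0.109 after P16 control 1 and 0.0649 after P16 control 3. Igfbp4 (-0.55) and Igfbp6 (-0.59) fell, but both lost the call in 5 of the 6 fits with 1 library left out, and Igfbp6 had an adjusted p of 0.067 under the block within the day.

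Beside Hbb-bs, described with the blood markers, the steepest rises included genes of transport, matrix and immune contact. Slc12a1 (ENSMUSG00000027202, chromosome 2, 125152505 to 125230002), a sodium-potassium-chloride cotransporter best known from the kidney, had 380.3, 337 and 789 scaled reads at P14 and 4556, 3069 and 5714 at P16. Every P16 library exceeded every P14 library several times over. It rose by 3.21 (SE 0.61, adjusted p = 0.0083) on the log2 scale, a 9.23-fold rise that passed whichever library was left out. Cd274 (ENSMUSG00000016496, chromosome 19, 29367455 to 29388095), which encodes the immune checkpoint ligand PD-L1, had 36.8, 11.96 and 73.1 scaled reads at P14 and 439, 182 and 245 at P16, a log2 fold change of 3.03 (SE 0.55, adjusted p = 0.00655). Lama3, a laminin chain of epithelial basement membranes, had 110.4, 133 and 320.2 scaled reads at P14 and 1969, 566 and 1003 at P16. It changed by 2.62 (SE 0.42, adjusted p = 0.00405), with P16 control 1 the highest library. Hapln1, a protein that links hyaluronan to proteoglycans, had 16.98, 33.7 and 9.88 scaled reads at P14 and 244, 67.3 and 96.1 at P16, a change of 2.63 (SE 0.52, adjusted p = 0.01). Cd274, Lama3 and Hapln1 passed whichever library was left out.

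Spp1 and Cemip rose from P14 libraries that differed widely. Spp1, which encodes osteopontin, a secreted matrix phosphoprotein, had 119, 15.2 and 558 scaled reads at P14 and 2023, 739 and 1219.7 at P16. The log2 change of 3.57 (SE 1.01, adjusted p = 0.037) had an adjusted p of 0.0891 after P14 control 1 was left out, 0.0844 after P14 control 2, 0.123 after P16 control 1, 0.0506 after P16 control 2 and 0.0898 after P16 control 3. Cemip, which takes part in breaking down hyaluronan, had 174, 44.6 and 637 scaled reads at P14 and 1700.4, 1135 and 1223 at P16, a change of 2.95 (SE 0.86, adjusted p = 0.0418). For Cemip the adjusted p was 0.105 after P14 control 1 was left out, 0.121 after P14 control 2, 0.124 after P16 control 1, 0.0722 after P16 control 2 and 0.0926 after P16 control 3. With the block within the day it was 0.0524 for Spp1 and 0.0572 for Cemip. The zinc exporter Slc30a2 had 26.4, 4.35 and 53.4 scaled reads at P14 and 348, 85.7 and 193 at P16 (log2 fold change 3.17, adjusted p = 0.018), the acute phase gene Orm3 had 14.2, 17.4 and 41.5 scaled reads at P14 and 189, 82.6 and 123 at P16 (2.46, 0.0126), and the glycosyltransferase Galnt15 had 1241, 237 and 1589 scaled reads at P14 and 4329, 3154 and 3952 at P16 (2.28, 0.0311). In each of these, P14 control 3 was the highest P14 library. Slc30a2 lost its call at 0.0775 after P16 control 1 was left out and 0.0573 after P16 control 3, Orm3 at 0.0507 after P14 control 1 was left out and 0.0571 after P16 control 1 and Galnt15 at 0.0565 after P14 control 2 was left out, 0.0958 after P16 control 1, 0.0508 after P16 control 2 and 0.0809 after P16 control 3.

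**Figure D3:**
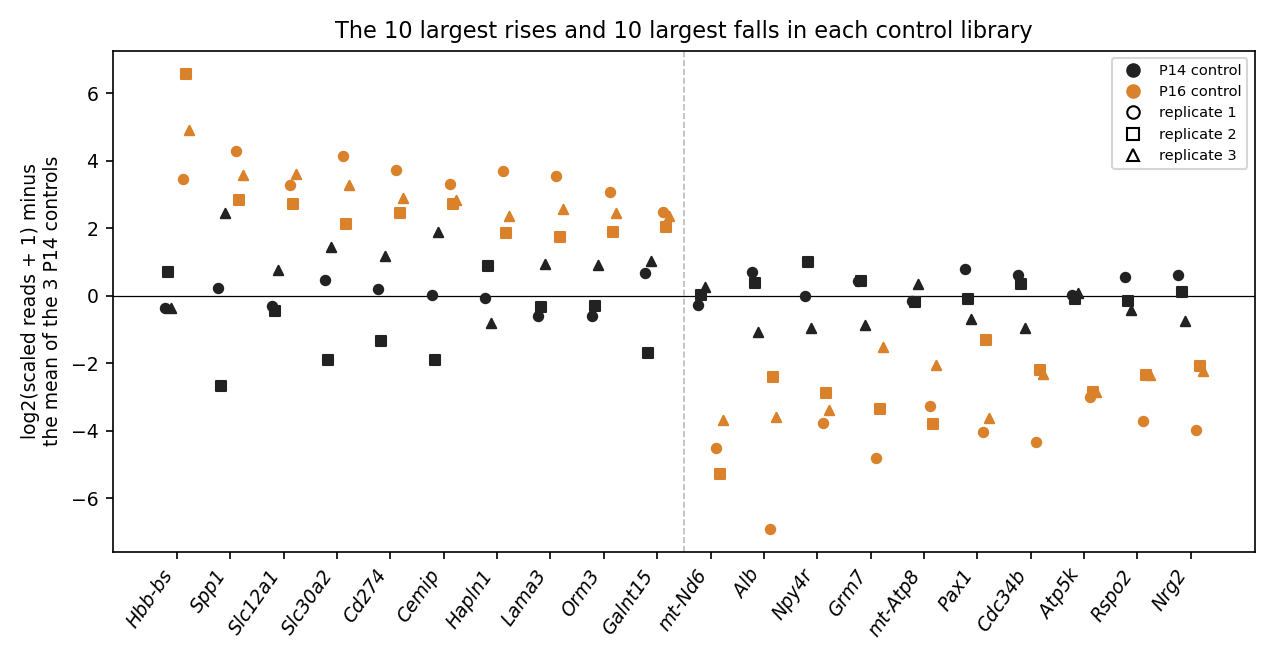
The 10 largest rises (left of the dashed line) and the 10 largest falls (right) of called genes at 1 CPM or more on average and with groups apart, each library plotted as log2(scaled reads + 1) minus the mean of the 3 P14 controls, with P14 in black and P16 in orange. The spread among P14 libraries is wide for Spp1, Slc30a2 and Cemip and narrow for Atp5k, mt-Nd6 and mt-Atp8.

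The gains in CPM after Igfbp3 were Hspa1b, Pappa2, Hspa1a and Thbs1. Pappa2, a protease that cleaves IGF-binding proteins, had 12605, 11397 and 14235 scaled reads at P14 and 38169.7, 22266 and 29149 at P16 and rose by 1.2 (SE 0.24, adjusted p = 0.01). Thbs1, which encodes the matricellular protein thrombospondin 1, had 10569.7, 10249 and 12775 scaled reads at P14 and 36923, 14562 and 23353 at P16, a change of 1.06 (SE 0.27, adjusted p = 0.025). Pappa2 passed whichever library was left out, whereas the adjusted p of Thbs1 was 0.0768 after P14 control 1 was left out, 0.0716 after P14 control 2, 0.0703 after P16 control 1 and 0.0667 after P16 control 3. Mmp11, the matrix metalloproteinase stromelysin 3, had 859, 755 and 941 scaled reads at P14 and 3330.2, 2365 and 3026 at P16, with little spread within either day. It changed by 1.76 (SE 0.18, adjusted p = 0.000476) and passed whichever library was left out.

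Outside the mitochondrial genes and the secreted signals, the steepest falls were of genes with few reads. Npy4r, a receptor of the pancreatic polypeptide family, had 81.2, 165 and 41.5 scaled reads at P14 and 5.16, 10.2 and 7.01 at P16, a log2 fold change of -3.35 (SE 0.50, adjusted p = 0.00278), and passed whichever library was left out. Grm7, a metabotropic glutamate receptor, had 68.9, 69.6 and 27.7 scaled reads at P14 and 0.861, 4.08 and 17.02 at P16, a change of -3.23 (SE 0.70, adjusted p = 0.0138), with an adjusted p of 0.0526 after P14 control 1 was left out. Alb, the serum albumin gene, had 193, 154 and 56.3 scaled reads at P14 and 0, 21.4 and 9.01 at P16. It changed by -4.3 (SE 1.01, adjusted p = 0.0189), and the adjusted p was 0.0689 after P14 control 1 was left out and 0.0574 after P14 control 2. Pax1, a paired-box transcription factor, had 299, 159.8 and 105 scaled reads at P14 and 9.47, 68.3 and 13.02 at P16 (-2.99, adjusted p = 0.0139), and was at 0.0552 after P14 control 1 was left out, 0.0579 after P16 control 1 and 0.0526 after P16 control 3. Cdc34b, a ubiquitin-conjugating enzyme, had 135, 112 and 45.5 scaled reads at P14 and 3.44, 18.4 and 17.02 at P16, a change of -2.95 (SE 0.54, adjusted p = 0.00736), and passed whichever library was left out. Among other lists, the chemokine Cxcl14 had 10129, 6395 and 4552 scaled reads at P14 and 1735, 1952 and 1593 at P16. It changed by -1.92 (SE 0.30, adjusted p = 0.00321), with all P16 libraries low and close together.

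Heat shock and immediate early genes are known to be raised by cells during tissue dissociation as well as in the living animal. Of 29 tested, 7 rose and none fell, a share of 24.1% against 6.26% of all genes that rose, with a median of 0.62. The count was 0, 2 and 11 without P14 controls 1, 2 and 3 in turn, and 0, 8 and 1 without P16 controls 1, 2 and 3, and no member passed in all 6 of these fits. Hspa1a and Hspa1b encode the inducible Hsp70 chaperone and are near-identical copies, between which reads may be divided wrongly. Hspa1a had 5024, 3505 and 11199.9 scaled reads at P14 and 20648, 14208 and 24659 at P16. Hspa1b had 5382, 4135 and 15423 scaled reads at P14 and 24448, 16965 and 33139 at P16. P14 control 3 was the highest P14 library and lay closest to P16 control 2 in both genes. Their log2 fold changes were 1.73 (SE 0.47, adjusted p = 0.0332) and 1.77 (SE 0.54, adjusted p = 0.0481). The adjusted p of Hspa1a was 0.102 after P14 control 1 was left out, 0.103 after P14 control 2, 0.0965 after P16 control 1 and 0.101 after P16 control 3, and that of Hspa1b was 0.147 after P14 control 1 was left out, 0.141 after P14 control 2, 0.122 after P16 control 1, 0.054 after P16 control 2 and 0.141 after P16 control 3. The co-chaperones Hsph1 (1.21) and Dnajb1 (0.97), the stress factors Atf3 (1.05) and Btg2 (1.02) and the zinc finger factor Klf6 (0.88) made up the rest. In dMF1/2 mice the same list had a median change of 0.32 between the days. The part of handling in these changes was not tested.

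The promoters of Hspa1a and Hspa1b are shown because the genes moved together and share a heat shock motif. Of the 250 bases before the start site (RefSeq, GRCm38.p6, minus strand, chr17:34972157-34972406 for Hspa1a and chr17:34959239-34959488 for Hspa1b), 247 were identical. Capitals mark GAANNTTC, the head to head pair of heat shock units, which reads the same on both strands and begins 104 bases before the start in both. This motif was in 4 of 25 list members with a promoter and in 7.73% of the windows of all genes with a promoter. The longer heat shock motif of 3 units, searched on either strand, was in none of the 25, and the shorter pairs were searched after that. The tail to tail pair, TTCNNGAA, was in 2 of the 25 (Hsph1 and Egr2) and in 8.11% of the windows of all genes with a promoter. The AP-1 site, TGANTCA, was in none of the 25.
Hspa1a: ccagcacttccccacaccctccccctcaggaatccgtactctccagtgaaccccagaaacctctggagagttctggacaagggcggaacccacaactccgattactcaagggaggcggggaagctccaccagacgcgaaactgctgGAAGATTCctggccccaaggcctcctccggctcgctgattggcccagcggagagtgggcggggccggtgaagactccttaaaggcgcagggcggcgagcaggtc
Hspa1b: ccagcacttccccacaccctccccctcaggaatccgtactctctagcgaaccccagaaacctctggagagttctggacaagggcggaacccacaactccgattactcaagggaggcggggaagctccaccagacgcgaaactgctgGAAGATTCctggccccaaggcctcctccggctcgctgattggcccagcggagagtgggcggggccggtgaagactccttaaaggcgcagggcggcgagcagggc

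Genes of growth arrest and cell death moved in both directions. Among 23 CDK inhibitors and targets of p53, 5 rose and 2 fell, a share of 30.4% called against 14.5% of all genes, and 1 passed whichever library was left out. Trp53inp1, a p53-induced regulator of cell death and autophagy, had 546, 616 and 761 scaled reads at P14 and 1618, 1615 and 1384 at P16. It rose by 1.27 (SE 0.14, adjusted p = 0.00064) and was that gene. Cdkn1a, the CDK inhibitor p21, rose by 0.99 (adjusted p = 0.0449, or 0.053 with the block within the day), whereas the related Cdkn1c, p57, fell by 1.06 on the log2 scale (adjusted p = 0.0197). Of 28 BCL2 family members and death receptor genes, 6 rose and 1 fell, a share of 25%. The rises numbered 4, 3, 4, 1, 7 and 3 without P14 controls 1, 2 and 3 and P16 controls 1, 2 and 3 in turn, and 2 under total-count scaling. The rises included the death-promoting Pmaip1 (1.36) and Bcl2l11 (0.67) and the survival genes Bcl2 (0.92) and Birc3 (0.91). The fall was that of the death effector Bax, which had 413, 395 and 429.9 scaled reads at P14 and 245, 280.4 and 280.4 at P16. Bax changed by -0.62 (SE 0.095, adjusted p = 0.0031) on the log2 scale. Birc3 and Bax passed whichever library was left out. Among 40 cell cycle genes tested Pcna alone rose (0.53, adjusted p = 0.0268), with no fall, and its adjusted p was 0.089 after P14 control 1 was left out, 0.0854 after P14 control 2, 0.0805 after P16 control 1 and 0.0895 after P16 control 3.

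In TGF-beta and activin signalling 25% of genes passed the test, among chemokines and interleukins 14.7% and among MHC class I and interferon genes 8.11%, against 14.5% of all genes. Of 20 genes of TGF-beta and activin signalling, 4 rose and 1 fell, and 0 kept the call in every fit with 1 library left out. Inhbb, a subunit of activin B, had 834, 1106 and 1891 scaled reads at P14 and 3532, 2119 and 3046 at P16, a change of 1.24 (SE 0.28, adjusted p = 0.0171), with an adjusted p of 0.0631 after P14 control 1 was left out, 0.0546 after P14 control 2, 0.071 after P16 control 1 and 0.0568 after P16 control 3. Among 34 chemokines, interleukins and their receptors, 3 rose and 2 fell, and 4 of them passed in every such fit. Il6 had 645, 943 and 1219 scaled reads at P14 and 3137, 1679 and 2117 at P16, a log2 fold change of 1.3 (SE 0.25, adjusted p = 0.00912), and the interleukin 1 receptor Il1r1 had 831, 854 and 1055 scaled reads at P14 and 1649.6, 1492 and 1464 at P16, a change of 0.76 (SE 0.11, adjusted p = 0.00225). Both passed whichever library was left out. Of 37 genes of MHC class I and the interferon response, Irf1 (0.86), Nlrc5 (0.72) and Gbp2 (0.50) rose, none of them in every fit with 1 library left out, and Nlrc5 had an adjusted p of 0.0541 with the block within the day.

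The extracellular matrix changed gene by gene. The share called was 11.9% of collagens, 19.4% of proteoglycan and hyaluronan genes and 22.2% of matrix proteases and inhibitors, against 14.5% of all genes. Of 42 collagens, 5 fell and none rose, and Col6a6 (2483, 2291 and 2270.0 scaled reads at P14 and 1015, 1200.1 and 1199.7 at P16) was the only 1 of these to pass in every fit with 1 library left out, at -1.05 (SE 0.099, adjusted p = 0.000267). Col13a1, a transmembrane collagen, fell by 1.64 on the log2 scale (adjusted p = 0.0273). Col4a2, a basement membrane chain, was among the 5 largest losses in CPM, from 2187 to 1285 CPM, although its change was only -0.64 (adjusted p = 0.0463). It passed in none of the fits with 1 library left out, with adjusted p between 0.0505 and 0.164. Of 36 proteoglycan and hyaluronan genes, 5 rose and 2 fell, of which Hapln1 and Gpc6 passed in every fit with 1 library left out. With the block within the day 4 rose and 4 fell. The proteoglycan Cspg4 (1.3) and the hyaluronan synthase Has1 (1.04) rose beside Hapln1 and Cemip, whereas the glypican Gpc6 fell (-1.17). Matrix proteases and their inhibitors had 4 rises and 8 falls among 54. Without P16 control 1 none of those 8 falls passed, and the 4 rises became 3. Mmp11, Pappa2 and Adam10 (0.36) passed in every such fit.

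Among groups known from patterning, nerves and daily rhythms, the share called was 16.9% for axon guidance, 26.9% for Hox genes, 16.5% for other developmental transcription factors, 21.2% for ion channels, 17.6% for nuclear receptors and retinoid genes and 10% for clock genes, against 14.5% of all genes. Of 65 axon guidance genes, 4 rose and 7 fell, among the falls Dcc (695, 632 and 305 scaled reads at P14 and 131, 103 and 151 at P16) and Unc5c (1838, 2116 and 1238 scaled reads at P14 and 398, 758 and 336 at P16), both netrin receptors. Their log2 fold changes were -2.0 (SE 0.33, adjusted p = 0.00443) and -1.86 (SE 0.29, adjusted p = 0.00355), and both were among the 5 that passed in every fit with 1 library left out. Of 26 Hox genes 7 fell and none rose, with Hoxa10 at -1.28 and Hoxa9 at -1.22, of which Hoxc9 (-0.71) and Hoxb2 passed whichever library was left out. The Hox falls numbered 2, 6, 7, 2, 5 and 4 without P14 controls 1, 2 and 3 and P16 controls 1, 2 and 3 in turn, 2 with the 6 control libraries alone and 0 under total-count scaling. Among 79 other developmental transcription factors, 11 fell and 2 rose (12 and 4 with the block within the day), and Sox12 (-1.25), Six2 (-1.31) and Alx4 were the 3 that passed in every fit with 1 library left out. Alx4 had 19327, 13681 and 9096 scaled reads at P14 and 3099, 5279 and 6098 at P16, a change of -1.53 (SE 0.32, adjusted p = 0.0114), whereas Runx1 rose by 1.22 (adjusted p = 0.0168). Of 66 ion channels 5 rose, Ano1 (1.45) steepest, and 9 fell, among them Scn4b (-2.02) and Trpm3 (-1.89), and these 3 were among the 5 that passed in every such fit. The retinoid carrier Crabp2 fell by 1.79 on the log2 scale and passed in every such fit, while 4 of 34 nuclear receptor and retinoid genes fell in all against 2 that rose. Of 20 clock genes, Rora (0.96) and Nr1d2 (0.92) rose, Rora in every such fit.

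Genes of metabolism and trafficking changed in both directions, and 15.6% (glycolysis and hypoxia) to 21.2% (cholesterol and fatty acids) of each group passed, against 14.5% of all genes. Of 33 genes of cholesterol and fatty acid synthesis, 6 fell and 1 rose. Tm7sf2, a sterol reductase, fell by 1.35 on the log2 scale (adjusted p = 0.035), whereas the fatty acid elongase Elovl6 had 311, 369.7 and 612 scaled reads at P14 and 1487, 787 and 802 at P16, a rise of 1.24 (SE 0.26, adjusted p = 0.0124). Of 32 genes of glycolysis and hypoxia, 2 rose and 3 fell. Egln3, a hydroxylase that hypoxia induces, had 72.7, 94.6 and 95.9 scaled reads at P14 and 306, 155 and 292 at P16, a change of 1.46 (SE 0.25, adjusted p = 0.0054), while the growth factor Vegfa (-0.43) and the lactate dehydrogenase Ldha (-0.39) fell. Elovl6, Fads2 and Egln3 of these groups passed whichever library was left out. Among 35 genes of the endoplasmic reticulum, 4 rose and 3 fell. Plod2, which hydroxylates lysines of collagen, had 7294, 5274 and 5201 scaled reads at P14 and 1011, 2928 and 2182 at P16, a change of -1.65 (SE 0.38, adjusted p = 0.018), with an adjusted p of 0.0678 after P14 control 1 was left out and 0.0591 after P16 control 1. Of 19 genes of zinc transport, Slc30a2, Slc39a14 (0.68) and Slc30a4 (0.30) rose and none fell. Of 20 genes of the PDGF, VEGF and angiopoietin families, Angptl4 (0.82) and Pdgfrb (0.49) rose and Vegfa and Vegfb (-0.69) fell, and neither group had a gene that passed in every fit with 1 library left out.

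Smaller groups of signalling and adhesion genes ranged in the share that passed from 5.26% (Notch) and 6.06% (cadherins and junctions) to 21.9% (neuropeptides) and 36.4% (matricellular genes), against 14.5% of all genes. In the Notch pathway 1 of 19 genes fell, Rfng (-0.53), or 2 with the block within the day, and in the Hedgehog pathway Boc rose (0.58) and Smo fell (-0.30) among 11. Of 29 genes in the list of laminins, nidogens and basement membrane, 3 rose, Lama3, Tnn (2.17) and Thbs1, and 2 fell, Thbs3 (-0.58) and Postn (-0.60). Only Lama3 of these is a laminin, and the list also holds matricellular genes such as Thbs1 and Postn. In the separate list of 11 matricellular genes, which lacks Thbs1, 2 rose, Spp1 and Sparcl1 (0.64), and 2 fell, Postn and Smoc1. Spp1 and Smoc1 did not pass with the block within the day. Of 19 integrins, Itgav (0.34) rose and Itga9 fell, and of 33 cadherins and junction genes Cdh6 (-1.32) and Cdh22 (-1.29) fell. Of 32 neuropeptides and their receptors 2 rose and 5 fell. Tacr1, the receptor of substance P, had 32.1, 22.8 and 50.4 scaled reads at P14 and 169.5, 104 and 85.1 at P16, a change of 1.75 (adjusted p = 0.0134), and Npy2r, a neuropeptide Y receptor, had 58.5, 42.4 and 37.5 scaled reads at P14 and 1.72, 13.2 and 9.01 at P16, a change of -2.67 (adjusted p = 0.0165). Of all genes in these smaller groups, Rfng, Lama3, Cdh6, Ramp2 (-0.60) and Npy4r passed in every fit with 1 library left out.

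Many counts of the groups were lower with the 6 control libraries alone and under total-count scaling. The falls of matrix proteases and inhibitors numbered 0 and 0 in these fits in place of 8, those of other developmental transcription factors 4 and 4 in place of 11, and those of ion channels 3 and 3 in place of 9. The rises of stress genes numbered 1 and 3 in place of 7. Respiratory chain falls numbered 24 and 15 in place of 27, ribosomal protein falls 15 and 9 in place of 21 and mitochondrially encoded falls 10 and 10 in place of 11. Of 79 group counts above 0, 55 moved by over 1.5 times with the 6 libraries alone and 65 under total-count scaling.

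**Figure D4:**
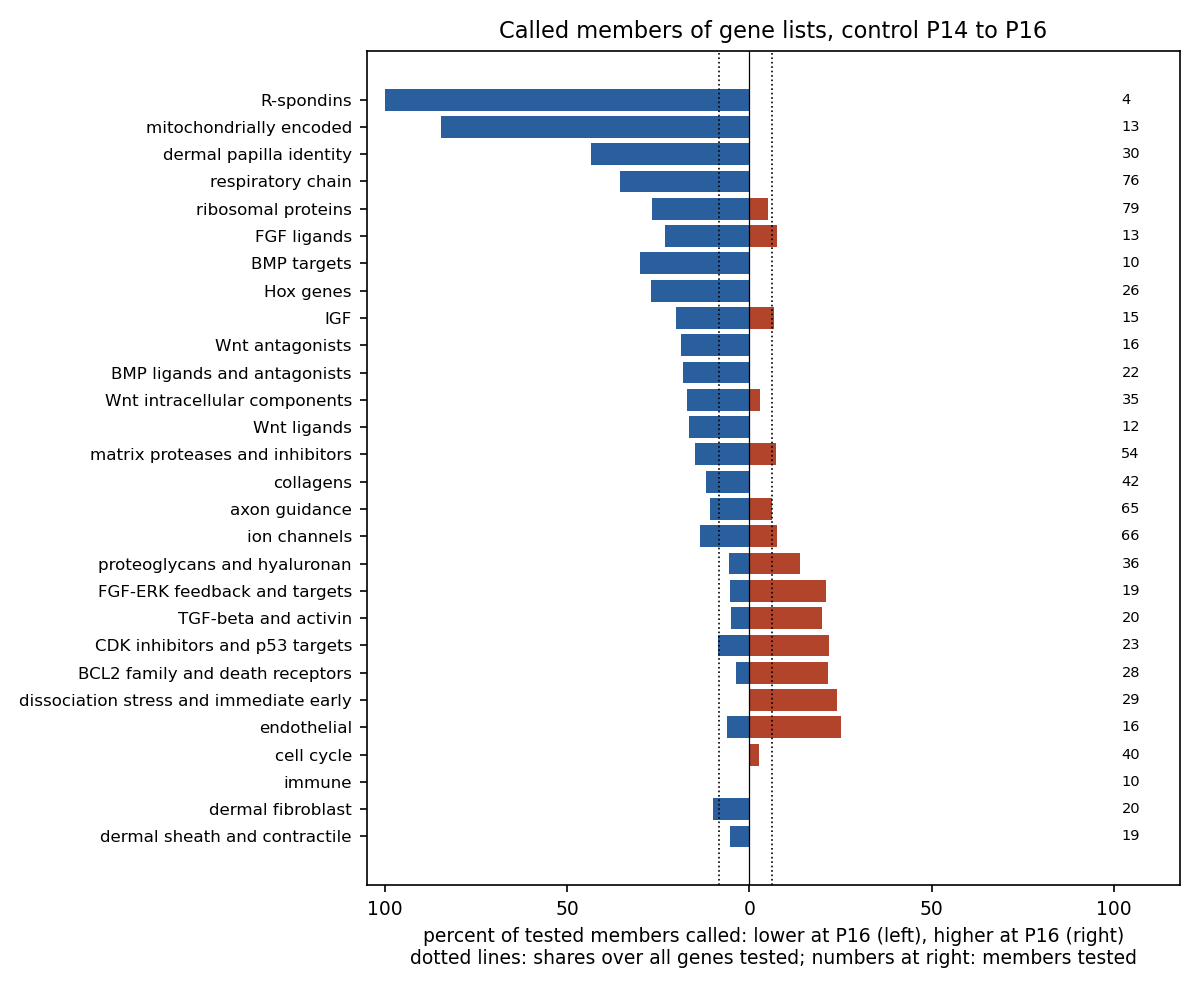
Share of the tested members called lower (blue, left) and higher (red, right) at P16 in 28 gene lists, with the number of members tested at the right and dotted lines at the shares over all genes tested (8.28% lower, 6.26% higher). R-spondins, mitochondrially encoded genes and DP identity genes have the largest shares of falls, and endothelial and stress genes the largest shares of rises.

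Many genes of the respiratory chain and the ribosome fell, and nuclear genes fell more often the shorter their transcripts were. Of 13 protein genes encoded by the mitochondrial genome 11 fell, with a median change of -1.25. mt-Nd6, encoded on the light strand unlike the others, had 1883, 2327 and 2718 scaled reads at P14 and 99.8, 58.1 and 176 at P16, a log2 fold change of -4.49 (SE 0.31, adjusted p = 3.00e-05). mt-Nd2 had 8656, 9935 and 12519 scaled reads at P14 and 1611, 1546 and 2188 at P16, a change of -2.54 (SE 0.17, adjusted p = 3.00e-05). Of 76 nuclear genes of the respiratory chain 27 fell and none rose, a share of 35.5% called against 14.5% of all genes (8.28% lower), and Ndufa13, a subunit of complex I, had 867, 788 and 877 scaled reads at P14 and 262, 266 and 289 at P16. Ndufa13 changed by -1.63 (SE 0.095, adjusted p = 1.00e-05), with no P16 library near the P14 range. Of 79 ribosomal protein genes 21 fell and 4 rose, a share of 31.6%. In every fit with 1 library left out, 9 mitochondrially encoded, 21 respiratory chain and 15 ribosomal protein genes passed. Many genes of these groups have near-identical copies elsewhere in the genome, to which reads can be lost. In dMF1/2 mice the medians were -1.37 for mitochondrially encoded, -0.29 for respiratory chain and -0.14 for ribosomal protein genes, beside -1.25, -0.24 and -0.12 in control mice.

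By the median length of a gene's coding transcripts, 18.9% of the 196 genes under 500 bases fell and 2.55% rose, whereas 5.48% of the 2572 genes in the longest class fell and 11.7% rose. The median change went from -0.13 to 0.12 across the length classes in control mice and from -0.13 to 0.10 in dMF1/2 mice. Of the genes in question, 8 of 13 mitochondrially encoded, 57 of 76 respiratory chain and 65 of 79 ribosomal protein genes were under 1000 bases, as were 2 of 30 DP identity genes. Each day was deposited as a table of its own, and age and any difference in the making of the libraries between the days cannot be told apart. With each library's trend on length subtracted, 1849 genes passed, 785 up and 1064 down. The R-spondins then kept 4 falls (median -2.34), DP identity genes had 14 (median -0.75) and mitochondrially encoded genes 11 (median -1.18). Respiratory chain genes then had 1 rise and 24 falls, with a median of -0.16. Ribosomal protein genes then had 9 rises and 16 falls, and their median was -0.023.

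**Figure D5:**
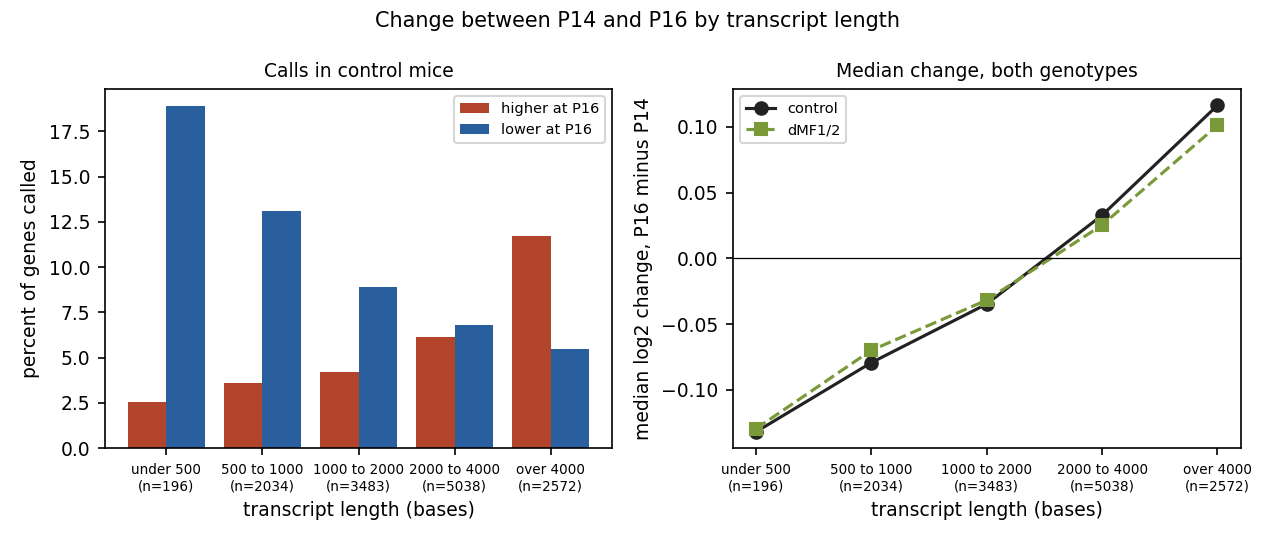
Left, the share of genes called higher (red) and lower (blue) at P16 in control mice in 5 classes of transcript length in bases, mitochondrially encoded genes left out. Right, the median log2 fold change between the days in the same classes in control (black circles) and dMF1/2 mice (green squares), which runs from -0.13 for the shortest class to 0.12 and 0.10 for the longest.

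Genes of blood and vessels had few reads on both days. Of 16 endothelial genes tested 4 rose and 1 fell, a share of 31.2% called against 14.5% of all genes, with a median of 1.44. The fall was that of Tek, with log2 changes between -1.18 and -0.66 when 1 library was left out. Its adjusted p in those fits was between 0.0143 and 0.123. Vwf, the von Willebrand factor of endothelial cells, had 83.98, 68.5 and 63.2 scaled reads at P14 and 133, 252 and 211 at P16, and Prox1, the factor of lymphatic endothelium, had 20.8, 28.3 and 41.5 scaled reads at P14 and 90.3, 105 and 79.1 at P16. Their log2 fold changes were 1.42 (SE 0.26, adjusted p = 0.00758) and 1.61 (SE 0.26, adjusted p = 0.0036), and both passed whichever library was left out. Of the 5 defining markers Emcn, which encodes endomucin, rose, with 3.77, 3.26 and 2.96 scaled reads at P14 and 17.2, 36.7 and 21.03 at P16, a change of 2.52 (SE 0.63, adjusted p = 0.0252), and its adjusted p was 0.0635 after P14 control 1 was left out, 0.0613 after P14 control 2, 0.0575 after P16 control 1, 0.0703 after P16 control 2 and 0.0623 after P16 control 3. The defining marker Pecam1 had 52.8, 40.2 and 82.02 scaled reads at P14 and 79.2, 323 and 247 at P16 (adjusted p = 0.0623, or 0.0432 with the block within the day). The other defining markers, Cdh5, Cldn5 and Tie1, did not pass, and the groups overlapped for Cdh5 and Cldn5. The 5 defining endothelial markers summed to 6.86 to 18.2 CPM at P14 and 10.5 to 35.0 CPM at P16. Hbb-bs, an adult beta globin gene of red cells, counted 1 read in all at P14 and 171 at P16. After scaling that is a ratio of 163, with an exact 95% interval of 28.8 to 6470 that covers counting error only, and limma's adjusted p was 0.00663. The P16 libraries had 12.9, 121 and 37.1 scaled reads, so that P16 control 2 held most of them. Without that library the log2 fold change was 4.17 (adjusted p = 0.019). The 3 red cell markers listed on both days summed to 0.116 to 0.622 CPM at P14 and 1.31 to 7.51 CPM at P16, and their part in any other change was not tested. Plin1, which coats fat droplets, had 552, 362 and 147 scaled reads at P14 and 40.4, 85.7 and 59.1 at P16, a log2 fold change of -2.37 (SE 0.41, adjusted p = 0.00558), while Fabp4 had 268, 96.8 and 214 scaled reads at P14 and 182, 322 and 371 at P16 (adjusted p = 0.275). Among scarcer cell types, Kit (1.53) and Mitf (0.52) rose of 6 melanocyte genes and Lgals7 (1.62) of 17 follicle keratinocyte genes (2 with the block within the day), with no fall in these lists. Mitf had an adjusted p of 0.0529 after P16 control 3 was left out, and Lgals7 of 0.0522 after P14 control 2 was left out and 0.052 after P16 control 1. The defining melanocyte markers summed to 1.70 to 3.52 CPM at P14 and 2.12 to 3.25 CPM at P16, and 10 of the 17 keratinocyte genes had a change below 0 (median -0.26). None of the 10 immune or 8 skeletal muscle genes tested passed. Of 20 dermal fibroblast genes, the 5 defining ones among them did not pass, while Sfrp2 and Cd248 fell and none rose. Cd248, a surface glycoprotein of stromal cells, had 11114, 12878 and 11256 scaled reads at P14 and 6895, 7450.1 and 6638 at P16, a change of -0.75 (SE 0.12, adjusted p = 0.0036), and it and Sfrp2 passed whichever library was left out. Of 19 dermal sheath genes only Cnn2 passed (-0.55), and Acta2 had 4773, 9031 and 12477 scaled reads at P14 and 4859, 11096 and 7352 at P16.

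In dMF1/2 mice, 778 genes changed between the days (5.8% of genes tested), 246 up (1.83% of genes tested) and 532 down (3.97%). No gene had a difference of the change between the genotypes at an adjusted p under 0.05, and 648 were at an unadjusted p under 0.05, or 1467 under the block within the day. edgeR gave none as well, and DESeq2 gave 6, Mmp11, Tagln3, Adrb3, Cdc42ep3, Rspo2 and Unc5c, of which Tagln3, Adrb3 and Cdc42ep3 were named after their values were seen. The log2 fold change of Rspo2 was -0.39 in dMF1/2 mice (adjusted p = 0.594) beside -2.81 in control mice, that of Corin -0.43 (adjusted p = 0.648) beside -2.22 and that of Mmp11 0.12 (adjusted p = 0.747) beside 1.76. Between the days, mt-Nd6 changed by -4.95 and Ndufa13 by -1.7 in dMF1/2 mice, beside -4.49 and -1.63 in control mice.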

How the data were processed

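RNA was read in 12 libraries of FACS-sorted DP cells, 3 per genotype and day, prepared by ribosomal depletion with a directional kit. According to the methods and the submitters' processing notes, reads were trimmed with Trimmomatic, mapped to mm10 with TopHat2 (version 2), counted per gene of GRCm38.p4 with HTSeq and normalised with DESeq2. The deposited signal values are reads divided by size factors that the authors set within each day, for protein-coding genes. The deposited tables also hold the authors' log2 fold changes, Wald scores and p-values of dMF1/2 against control, which were not used.

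Every value was a whole multiple of the smallest value above 0 of its library (100% of values within 1e-06), so that dividing by it gave whole reads. The 14986 genes listed on both days were rescaled together by the median of ratios. limma 3.58.1 (R 4.3.3) was fitted to log2(scaled reads + 1) over the 12 libraries in 4 groups, with a mean-variance trend, for genes that averaged 10 scaled reads or more and a Benjamini-Hochberg adjusted p threshold of 0.05. Fold changes of genes with few reads are understated by the pseudocount of 1. Adjusted p-values in the text are limma's unless edgeR (4.0.16) or DESeq2 (1.42.0) is named, both run on the recovered reads. Deviations from the group means correlated at 0.266 to 0.573 between control and dMF1/2 libraries of the same day and replicate number, so that the numbers paired the genotypes within a day, and at -0.42 to 0.0945 between different numbers. The block within a day was fitted as random for the change in control mice (consensus correlation 0.372) and as fixed for the difference between genotypes. Intervals cover counting error only. The study describes each library as that of a single mouse, but litters and dates of preparation are not given, so p-values measure the spread between these libraries. Named genes were those the study singles out, the 10 largest rises and falls at 1 CPM or more whose groups did not overlap, the 5 largest gains and losses in CPM, up to 4 called members per list and direction, and the cell type markers. Transcript lengths came from the GENCODE M21 annotation, and 6 motifs were searched in RefSeq promoters. The comparison and the 55 gene lists were chosen with earlier results of these data known.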

Additional observations from a re-analysis of the deposited data

Results flagged for a closer look

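Slc30a2 and Npffr2 were singled out because the control libraries moved one way between the days without overlap and the dMF1/2 libraries moved the other way without overlap. Slc30a2, a zinc transporter, rose by 3.174 on the log2 scale in control mice (adjusted p = 0.018), while in dMF1/2 mice its mean went from 4.37 to 1.66 scaled reads (-1.01, adjusted p = 0.456). It passed the filter on mean reads through the control libraries alone. Its move in dMF1/2 mice rests on a few reads per library, so that its direction there is not established. Npffr2, a receptor of neuropeptide FF, changed by -2.622 in control mice (adjusted p = 0.0211), from 229, 114 and 153 scaled reads at P14 and 12.1, 94.8 and 13.02 at P16, while in dMF1/2 mice its mean went from 394 to 668 scaled reads (0.87, adjusted p = 0.454). The difference of the change between genotypes did not pass after adjustment over all genes (adjusted p = 1 for both in limma's fit). The change in control mice had an adjusted p of 0.0775 after P16 control 1 was left out and 0.0573 after P16 control 3 for Slc30a2. For Npffr2 it was 0.0777 after P14 control 1 was left out, 0.0815 after P16 control 1 and 0.0753 after P16 control 3. The difference between genotypes for Npffr2 passed in 1 of the alternatives tried, limma's fit without P16 control replicate 2, at an adjusted p of 0.02805. That library, at 94.8 scaled reads, was the P16 control nearest to P14. Npffr2 was singled out for opposite moves in the same libraries, so that this is not independent evidence of a difference.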

How the results depend on the processing

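Of 1951 genes called, 569 passed whichever control library was left out. Leaving out 1 library gave 693 to 1943 changed genes, 232 to 887 rising, 461 to 1056 falling and 0 to 2 with a difference between genotypes (Rps18-ps3 and Gm10263 without P14 control replicate 1, Npffr2 without P16 control replicate 2). The 6 control libraries alone gave 805 calls (283 up, 522 down), total-count scaling 399 (99 up, 300 down) and limma's treat test against a log2 change of 1 gave 6, of which 0 rose and 6 fell (Npvf, Ndufa13, Atp5k, mt-Nd2, mt-Nd6 and mt-Nd4l). DESeq2 gave 6 genes with a difference between genotypes where limma and edgeR gave 0. For the fall in calls under total-count scaling and with single libraries left out, the cause was not tested. Total-count scaling put the median change of all genes at -0.094 against 0.014. The other counts of changed genes ran from 1459 to 2563 and were within 1.5 times of 1951. With the replicate block, 2243 genes passed (1019 up, 1224 down), but the replicate numbers did not pair the libraries across the days (correlations of -0.0545, -0.0621 and -0.13). Within a day they paired control with dMF1/2 libraries, and the replicate block within the day, added after seeing the data, gave 1917 genes (821 up, 1096 down) and no gene with a difference between genotypes (1467 at an unadjusted p under 0.05, lowest adjusted p = 0.0707). Of the 246 genes that the naming rule chose, 10 lost the call under it and 3 gained it, while 103 lost it with the 6 control libraries alone, 120 under total-count scaling and 15 to 115 with 1 library left out. Transcript length correction and the limit to transcripts of at least 1000 bases were chosen after seeing the data, and that limit removed 57 of 76 respiratory chain genes and left 2 falls in place of 27, against 24 falls with the correction. Of 5098 alternative values of single genes, 4120 kept their direction and their side of the threshold, and none reversed a call.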

Other observations

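Genes listed in the table of only 1 day did not enter the comparison. There were 223 listed at P14 only and 348 at P16 only, with a median sum of 8 and 9 reads over the 3 control libraries. In both tables, no listed gene had fewer than 12 reads over its 6 libraries. The largest sums were 59 reads of Spa17 at P14 and 76 reads of A230065H16Rik and 47 of Pvalb, which encodes the calcium-binding protein parvalbumin, at P16. In A230065H16Rik and Pvalb, P16 control replicate 1 held 66 and 42 of these reads, and the dMF1/2 libraries of that day held 0 and 4. Spa17 had 22, 24 and 13 reads in the P14 control libraries and 36 reads over the dMF1/2 libraries of that day.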
